A study of Mus musculus with 2 samples.

Results

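The genes described here encode 10 peptide hormones that define the subtypes of enteroendocrine cells: *Tac1*, *Ucn3*, *Iapp*, *Sct*, *Gcg*, *Sst*, *Ghrl*, *Cck*, *Gip* and *Pyy*. They were taken by symbol from the deposited tables, in which each had 1 row with the status OK in both libraries, out of 23532 gene symbols with an estimate in both. Messenger RNA had been measured in mouse small-intestinal organoids, cultures of gut epithelium grown from crypts in a gel. The crypts came from ChgA-GFP mice, whose green fluorescent protein (GFP) reports on the chromogranin A gene. Cells of these organoids were dissociated and sorted into a GFP+ fraction, about 1% of the epithelial cells, and the remaining GFP- fraction. Both fractions carry the reporter and grew with murine epidermal growth factor, noggin and R-spondin conditioned medium, and the labels give neither age nor number of mice. There was 1 library per fraction, so differences are described by size, without p-values or replicate error.

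Enteroendocrine cells are scattered secretory cells of the gut epithelium that release hormones in response to the gut contents. Each hormone is made as a longer precursor, cut by prohormone convertases and stored in dense-core granules together with granins such as chromogranin A. The classical subtypes, most of them named by letters, are each known for a main product: L cells for glucagon-like peptides and peptide YY, D cells for somatostatin, X cells for ghrelin, I cells for cholecystokinin, K cells for GIP, S cells for secretin, and enterochromaffin cells for serotonin together with substance P from *Tac1*.

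Sequences before the gene starts are shown for the pair of genes with the highest level in GFP+ and for 2 genes that were close to 0 there. Each window is the 250 bases before the annotated start (RefSeq, build GRCm38.p6, the assembly also called mm10). It is written 5′ to 3′ on the strand of the gene. Capitals mark 4 motifs searched on both strands. CANNTG is the E-box, bound by basic helix-loop-helix factors such as *Neurod1*. TATAAA is a TATA box of core promoters. TGACGTCA is the cAMP response element, and TAATTA is a core bound by homeodomain factors.
Tac1, chr6:7554811-7555060, plus strand: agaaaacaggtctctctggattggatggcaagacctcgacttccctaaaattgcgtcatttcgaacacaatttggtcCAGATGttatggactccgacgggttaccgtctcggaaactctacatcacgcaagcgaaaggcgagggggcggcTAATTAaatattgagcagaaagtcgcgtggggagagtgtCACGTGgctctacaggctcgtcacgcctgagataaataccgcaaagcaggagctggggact
Ucn3, chr13:3945350-3945599, minus strand: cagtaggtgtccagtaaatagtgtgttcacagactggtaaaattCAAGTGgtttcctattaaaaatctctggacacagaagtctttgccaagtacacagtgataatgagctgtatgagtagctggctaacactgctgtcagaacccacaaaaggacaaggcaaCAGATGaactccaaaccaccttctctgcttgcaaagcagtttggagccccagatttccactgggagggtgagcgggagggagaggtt
Gcg, chr2:62483654-62483903, minus strand: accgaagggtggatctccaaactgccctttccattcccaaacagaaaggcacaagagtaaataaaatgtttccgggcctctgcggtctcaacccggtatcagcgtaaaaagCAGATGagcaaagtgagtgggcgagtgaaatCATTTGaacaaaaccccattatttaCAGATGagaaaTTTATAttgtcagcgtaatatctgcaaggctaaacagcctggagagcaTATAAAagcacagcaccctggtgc
Sst, chr16:23890845-23891094, minus strand: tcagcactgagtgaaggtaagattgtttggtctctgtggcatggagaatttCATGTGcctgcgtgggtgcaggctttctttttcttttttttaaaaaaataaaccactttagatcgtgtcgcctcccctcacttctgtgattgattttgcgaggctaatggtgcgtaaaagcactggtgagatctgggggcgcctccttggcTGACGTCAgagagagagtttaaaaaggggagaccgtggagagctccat

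All 10 genes had a promoter window in the table, 8 of them with 1 start, *Pyy* with 2 and *Ghrl* with 4. An E-box was found for all 10 genes and in 12 of their 14 windows, against 66.2% of all 32851 windows. The cAMP response element was found in the *Sst* window, 48 bases before the start, and in no other window of the 10 genes. It was present in 1.55% of all windows. TATAAA was found for *Gcg*, on the gene's strand 24 bases before the start and on the other strand at 72 bases, and for *Sct* at 28 bases, against 12.4% of all windows. TAATTA was found for *Tac1*, 100 bases before the start, against 4.84% of all windows. These starts are those of RefSeq. GENCODE M21 places the start of *Tac1* further upstream, at 7554879, and that of *Sst* at 23890958. In that annotation the TAATTA of *Tac1* and the cAMP response element of *Sst* lie inside the gene span. Apart from the E-box, no searched motif was shared by the genes high in GFP+.

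Levels are given in FPKM as deposited (fragments per kilobase, relative to library size), a length-scaled unit that allows genes to be compared within a library. Differences are log2((FPKM + 1) in GFP+ / (FPKM + 1) in GFP-), a scale on which low genes appear to change less than they did. Genes were set apart where this difference was at least 2 in size, a 4-fold change. Of the 10 hormone genes, 4 were at least 4-fold higher in GFP+, 3 were at least 4-fold lower, and 3 lay between. *Gcg*, *Sst* and *Ghrl*, the 3 lower genes, did not reach 1 FPKM in GFP+, so it was their GFP- level that let them be tested and that gave their sign. Among all 11868 genes that reached 1 FPKM in one of the libraries, 7.09% were at least 4-fold higher and 4.59% at least 4-fold lower, so 60.7% of the genes past the threshold were higher. That split was 87.7% with the median ratio of well-expressed genes set to 0, and 91.8% with both libraries rescaled to one total. The same hormone genes passed the threshold in the same direction under each of these scalings. The median difference of all 10 hormone genes was -0.74, beside -0.12 for all genes tested. The latter became 0.35 and 0.50 under the other scalings, and relative to it the hormone median was -0.61 as deposited, -0.70 and -0.76. In bulk samples fewer cells of a type and less RNA per cell cannot be told apart, and this holds for each difference below.

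**Figure D1:**
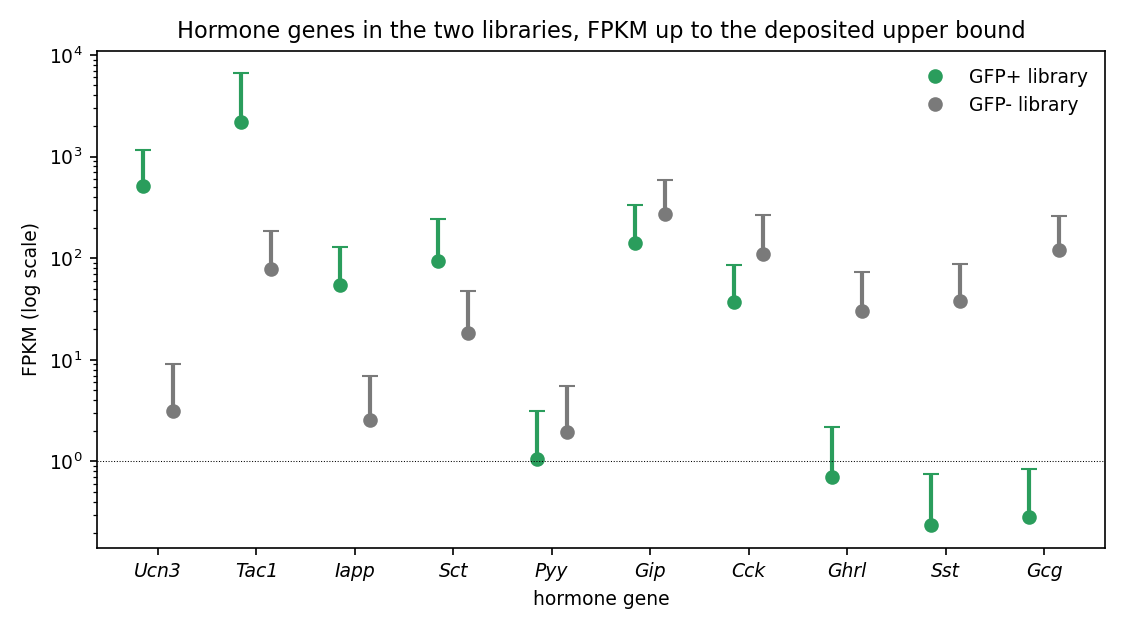
FPKM of each hormone gene (log axis) in the GFP+ library (green) and the GFP- library (grey); points are the deposited FPKM and bars run up to the deposited upper confidence bound, while every lower bound is 0. From left to right the genes run from the largest positive difference, *Ucn3*, to the largest negative difference, *Gcg*.

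*Tac1* encodes the precursor of the tachykinins substance P and neurokinin A, which act on gut nerves and smooth muscle. It was at 2200 FPKM in the GFP+ library (upper bound 6584) and at 77.5 FPKM in the GFP- library (upper bound 185). The ratio was 28.4 and the difference 4.81 on the log2 scale. *Tac1* ranked 2 of all 23532 symbols in GFP+ and 1759 in GFP-. It was thus the most abundant hormone of the 10 in GFP+, and was also well above 10 FPKM in GFP-. The gene lies on the plus strand of chromosome 6, with the listed locus from 7555071 to 7562973 (mm10).

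*Ucn3* encodes urocortin 3, a ligand of the corticotropin-releasing factor receptor type that *Crhr2* encodes, and is best known from pancreatic beta cells. Its level was 509 FPKM in GFP+ (upper bound 1163) and 3.13 FPKM in GFP- (upper bound 9.04). The ratio of 163 and the difference of 6.95 were the largest of the 10 genes upward. *Ucn3* moved from rank 8925 in GFP- to rank 61 in GFP+. It is a 2-exon gene on the minus strand of chromosome 13, from 3940688 to 3945349. Of the 10 genes, *Ucn3* and *Tac1* together made up 89.1% of the hormone FPKM in GFP+.

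*Iapp* encodes amylin, a peptide of the calcitonin family that pancreatic beta cells release with insulin. It was at 54.7 FPKM in GFP+ (upper bound 129) and at 2.55 FPKM in GFP- (upper bound 6.99), a ratio of 21.5 and a difference of 3.97. Its listed locus, chromosome 6 from 142234227 to 142322981, is shared with *Slco1a5*, whose row is at 0.00681 FPKM in GFP+ and is listed at 0 in GFP-. The annotated gene spans 142298423 to 142303961 (GENCODE M21), inside *Slco1a5* on the opposite strand and with no shared exon sequence. The insulin genes were not seen at a comparable level: *Ins1* was at 0.0209 FPKM in GFP+ and listed at 0 in GFP-, and *Ins2* was listed at 0 in both.

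*Sct* encodes secretin, which stimulates bicarbonate secretion by the pancreas. It was at 94.8 FPKM in GFP+ (upper bound 243) and at 18.5 FPKM in GFP- (upper bound 47.3). Its ratio of 5.12 and difference of 2.30 were the smallest of the 4 genes that passed the threshold upward, and *Sct* still passed it at 2.09 with a pseudocount of 5. The gene is compact, from 141278329 to 141279133 on chromosome 7, minus strand. For all 4 of these genes the GFP+ value lay above the upper bound of the GFP- value. The threshold already required this, since the upper bounds of the 10 genes were at most 3.23 times their FPKM. The deposited bounds themselves overlapped, since each lower bound is 0.

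*Gcg* encodes proglucagon, from which L cells cut the glucagon-like peptides. It was at 0.286 FPKM in the GFP+ library (upper bound 0.849) and at 120 FPKM in the GFP- library (upper bound 258). GFP- was thus 420 times higher, with a difference of -6.56, the largest of the 10 genes downward. The rank of *Gcg* was 1087 in GFP- and 12927 in GFP+. Its locus runs from 62474530 to 62483653 on chromosome 2, minus strand.

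*Sst* encodes somatostatin, the inhibitory hormone of D cells. Its level was 0.236 FPKM in GFP+ (upper bound 0.761) and 37.6 FPKM in GFP- (upper bound 87.8), 159 times higher in GFP- and a difference of -4.96. *Ghrl* encodes ghrelin, a peptide that stimulates appetite and is made by X cells. It was at 0.696 FPKM in GFP+ (upper bound 2.16) and at 30.0 FPKM in GFP- (upper bound 73.1), 43.2 times higher in GFP- and a difference of -4.19. Exons of *Ghrl* overlap those of *Gm26982* and *Gm44033* on the opposite strand, and whether counting used the strand is not given in the sources used here, so reads of these genes may not be told apart. These 3 genes were below 1 FPKM in GFP+ and between 30.0 and 120 FPKM in GFP-, with 1 value per library. Their deposited bounds overlapped, each lower bound being 0.

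The depth behind these low values can be read only roughly. Low FPKM values of genes with a single annotated transcript came in steps, and taking the first step as 1 fragment gave 63.2 fragments per FPKM and kilobase in GFP+ and 62.0 in GFP-, after 265 and 250 bases were subtracted from the transcript length. On this scale and with the longest annotated transcript, which gives the highest number, *Gcg* in GFP+ stands for about 14.9 fragments, *Sst* for 6.8 and *Ghrl* for 27.5, against 6239, 1098 and 1194 in GFP-. *Pyy* stands for about 19.4 fragments in GFP+ and 36.4 in GFP-. The values in GFP+ were therefore low but not listed at 0, and they rest on few fragments. The amplified libraries carried no stated molecular identifiers, so fragments may be copies of one molecule.

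*Cck*, *Gip* and *Pyy* did not pass the threshold. *Cck* encodes cholecystokinin, which contracts the gallbladder, and was at 37.2 FPKM in GFP+ (upper bound 85.4) and at 109 FPKM in GFP- (upper bound 267), a difference of -1.52. *Gip* encodes the glucose-dependent insulinotropic polypeptide of K cells and was at 141 FPKM in GFP+ (upper bound 335) and 275 FPKM in GFP- (upper bound 590), a difference of -0.96. It ranked 509 in GFP+ and 369 in GFP- and was the third hormone of the 10 in GFP+. *Pyy* encodes peptide YY, an L cell hormone that slows gut transit, and was near the filter in both libraries, at 1.06 FPKM in GFP+ (upper bound 3.12) and 1.93 FPKM in GFP- (upper bound 5.52), a difference of -0.51. Of the 3 genes, the GFP- value of *Cck* lay above the upper bound in GFP+, and neither value of *Gip* or *Pyy* lay above the upper bound of the other library. The median log2 ratio of the 5563 genes that reached 10 FPKM in each library was -0.50, beside -0.97 for *Gip* and -0.87 for *Pyy* without a pseudocount.

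**Figure D2:**
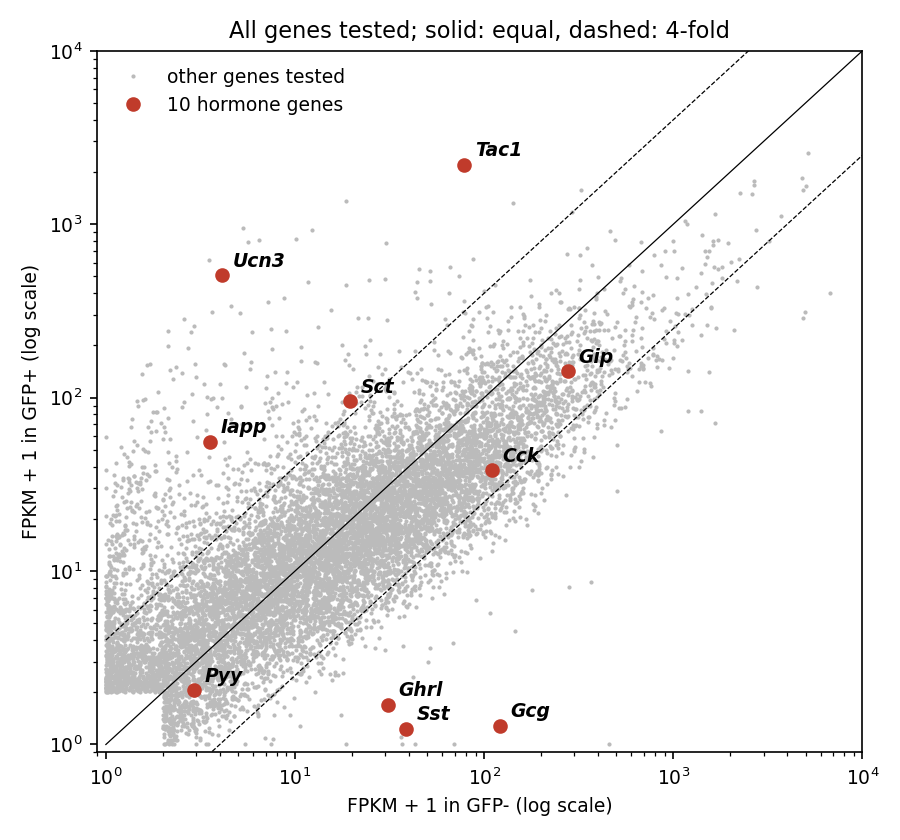
FPKM + 1 in GFP+ against FPKM + 1 in GFP- (both log axes) for the 11868 genes tested (grey) and the 10 hormone genes (red); the solid line marks equal values and the dashed lines 4-fold differences. *Tac1*, *Ucn3*, *Iapp* and *Sct* lie above the upper dashed line, *Gcg*, *Sst* and *Ghrl* below the lower one, and *Cck*, *Gip* and *Pyy* between.

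Shares of the hormones within a library do not depend on how the libraries were scaled to each other. The 10 genes summed to 3039 FPKM in GFP+, or 0.746% of all FPKM with an estimate, and to 675 FPKM in GFP-, or 0.108%. Without *Tac1* the ratio of the sums, GFP+ over GFP-, fell from 4.50 to 1.40. Unlike the shares, these ratios hold for the values as deposited and depend on the scaling between libraries. In GFP+ *Tac1* held 72.4% of the hormone FPKM, *Ucn3* 16.8%, *Gip* 4.63%, *Sct* 3.12%, *Iapp* 1.80% and *Cck* 1.22%. *Pyy* held 0.0348%, *Ghrl* 0.0229%, *Gcg* 0.00942% and *Sst* 0.00776%. In GFP- the order was different: *Gip* held 40.7%, *Gcg* 17.8%, *Cck* 16.1%, *Tac1* 11.5%, *Sst* 5.57%, *Ghrl* 4.45% and *Sct* 2.74%, followed by *Ucn3* at 0.464%, *Iapp* at 0.377% and *Pyy* at 0.285%. With 22 other peptide genes in the denominator the GFP- shares were lower, at 25.3% for *Gip*, 11.0% for *Gcg*, 10.0% for *Cck* and 7.12% for *Tac1*. The hormone transcripts of GFP+ were thus dominated by a pair of genes, while those of GFP- were spread over more of them. The exponential of the Shannon entropy of the shares, the number of equally abundant genes that would give the same spread, was 2.50 in GFP+ and 5.35 in GFP-.

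**Figure D3:**
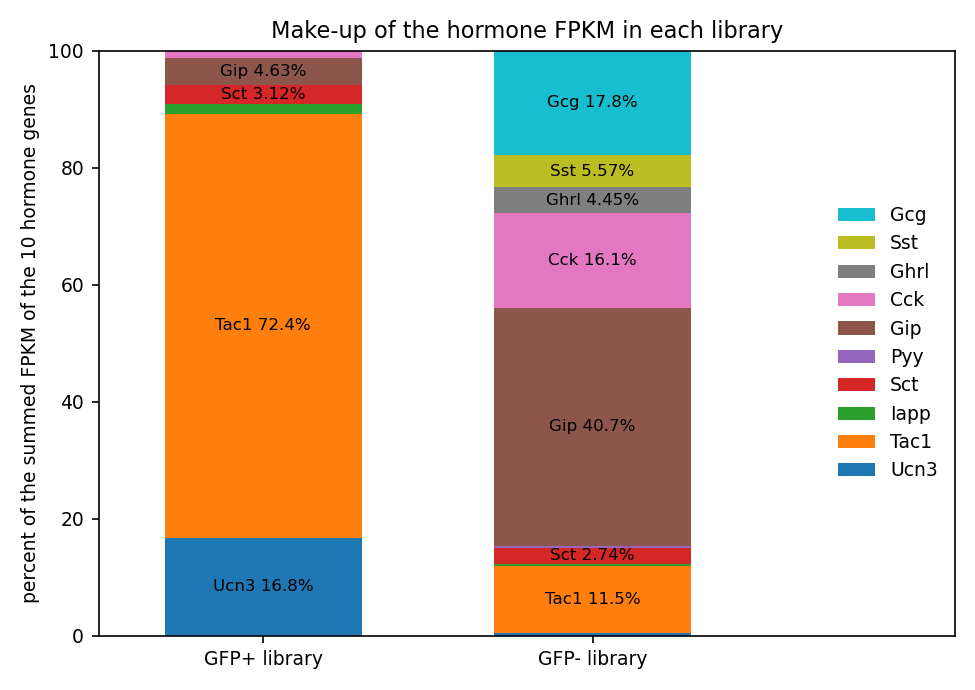
Percent of the summed FPKM of the 10 hormone genes held by each gene, as stacked bars for the GFP+ library and the GFP- library. *Tac1* and *Ucn3* fill 89.1% of the GFP+ bar, while *Gip*, *Gcg* and *Cck* fill 74.6% of the GFP- bar.

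Neighbours in these orders were often close. In GFP+ the ratio of each hormone to the next lower one was 4.32 for *Tac1* to *Ucn3* and 3.62 for *Ucn3* to *Gip*, then 1.48 for *Gip* to *Sct*, 1.73 for *Sct* to *Iapp* and 1.47 for *Iapp* to *Cck*. The largest step, 35.2, separated *Cck* from *Pyy*. In GFP- the ratio was 2.29 for *Gip* to *Gcg*, 1.10 for *Gcg* to *Cck* and 1.40 for *Cck* to *Tac1*, and the largest step, 5.91, separated *Sct* from *Ucn3*. The upper bounds of the 10 genes were 2.15 to 3.23 times their FPKM. *Tac1*, *Ucn3* and *Cck* in GFP+ and *Gip* and *Sct* in GFP- lay above the upper bound of the next hormone, and every other neighbour in the 2 orders lay below it.

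Ratios of hormones were also taken within each library, where the scaling between libraries plays no part. *Tac1* was 7689 times the level of *Gcg* in GFP+ and 0.645 times that level in GFP-. *Gcg* and *Pyy*, both L cell products, were unequal: *Gcg* was 62.3 times *Pyy* in GFP- and 0.271 times *Pyy* in GFP+. Both GFP+ ratios with *Gcg* rest on its 0.286 FPKM there, about 14.9 fragments, and *Pyy* was itself at 1.06 FPKM. *Cck* and *Sct* were below *Gip* in both libraries. *Cck* stood at 0.396 times *Gip* in GFP- and 0.264 times *Gip* in GFP+, ratios that differ by a factor of 1.50. *Sct* stood at 0.0674 times *Gip* in GFP- and 0.674 times in GFP+. The secretin to GIP ratio was thus 10.0 times higher in GFP+.

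**Figure D4:**
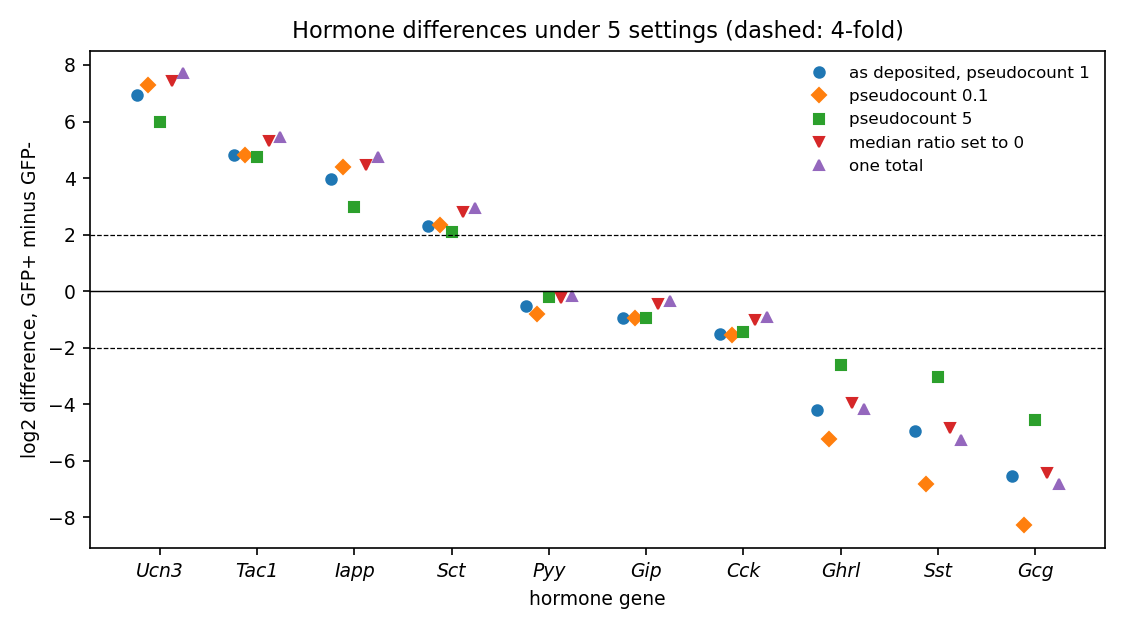
Log2 difference (GFP+ minus GFP-) of each hormone gene as deposited with a pseudocount of 1, with a pseudocount of 0.1 or 5, with the median ratio of well-expressed genes set to 0, and with both libraries rescaled to one total; dashed lines mark 4-fold. *Sct* comes closest to the threshold among the genes past it, at 2.09 with a pseudocount of 5, and no gene crosses 0.

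Genes with a like pattern were sought over the 2 libraries, as the gene closest in log2(FPKM + 1) to each hormone among 11847 others. With only 2 values a gene, a close pair says little. *Ucn3* was closest to *Trpa1*, an irritant-sensing channel at 617 FPKM in GFP+ against 2.52 FPKM, at a distance of 0.36. *Sct* was closest to the cotransporter gene *Slc12a7*, at 96.0 and 18.5 FPKM and a distance of 0.02. *Tac1* had no near neighbour, the closest being *Gstt1* at a distance of 1.12. *Gcg* had none either: the closest was *Snord65*, a small nucleolar RNA listed at 0 in GFP+ and at 67.9 FPKM in GFP-, at 0.89. The closest row to *Sst* and also to *Ghrl* joined *Defa4* with *Gm10104*, at 0.103 FPKM in GFP+ against 35.4 FPKM, with distances of 0.18 and 0.66. *Iapp* was closest to *Taf1*, at 0.23. *Cck*, *Gip* and *Pyy* lay in dense regions, with 298, 111 and 357 other genes within 0.5, the nearest being *Pdgfa*, *Fkbp8* and *Tmem116*.

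Close relatives of the 10 genes were low in both libraries, apart from 3. Of 16 paralogs, 13 were below 1 FPKM in both, among them the other tachykinin genes *Tac2* and *Tac4*, the corticotropin-releasing factor relatives *Crh*, *Ucn* and *Ucn2*, *Vip*, *Cort*, *Npy* and *Ppy*. The highest of these was *Calcb*, a calcitonin gene-related peptide gene, at 0.927 FPKM in GFP+ and listed at 0 in GFP-. *Gast*, the gastrin gene related to *Cck*, was at 13.0 FPKM in GFP+, against 0.639 in GFP-, a difference of 3.10. The adrenomedullin genes *Adm* and *Adm2* were at 25.7 against 7.87 FPKM and 10.0 against 5.15 FPKM, with differences of 1.59 and 0.84.

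Of 22 further gut and islet peptide genes, 9 reached 1 FPKM, with 4 at least 4-fold higher and 2 at least 4-fold lower, beside 7.09% and 4.59% of all genes. Each of the 4 higher ones was below 1 FPKM in GFP-, so it was tested on account of its GFP+ value and could only come out higher. *Cartpt*, a neuropeptide precursor, was at 16.2 FPKM in GFP+, against 0.269 in GFP-, and *Penk*, the enkephalin precursor, at 8.14 against 0.137 FPKM. *Gast* is described above. *Guca2a* encodes guanylin, a peptide of the epithelium at large, and was at 26.5 against 270 FPKM. The other two past the threshold, named after their values were seen, were *Nmb* at 7.52 against 0.743 FPKM and *Nts*, the neurotensin gene of N cells, at 0.0689 against 6.62 FPKM. *Nts* was tested on account of its GFP- value and could only come out lower.

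Among the genes that process and pack prohormones, 8 of the 13 tested passed the threshold upward and none downward (beside 7.09% upward and 4.59% downward among all genes), with a median difference of 2.43. *Pcsk2*, *Pcsk1n* and *Pam*, 3 of the 8, were below 1 FPKM in GFP-, so that the filter gave their sign. *Pcsk1*, a prohormone convertase of gut endocrine cells, was at 930 FPKM in GFP+, against 11.3 in GFP-. *Cpe*, the carboxypeptidase that trims the cut peptides, was at 782 against 29.2 FPKM. The granin *Scg3* was at 62.2 against 1.06 FPKM and *Scg5*, a chaperone of the second convertase, at 144 against 4.77 FPKM. That convertase, *Pcsk2*, was at 4.52 against 0.0211 FPKM. *Mboat4*, which attaches the fatty acid that ghrelin needs, was below 1 FPKM in both, at 0.420 in GFP+ and 0.690 in GFP-. *Chga* and *Chgb* had no estimate in GFP+, where their loci held too many fragments for Cuffdiff, and were at 133 and 392 FPKM in GFP-. The remaining 5 of the 13 did not pass the threshold, with differences from -1.13 for *Pcsk6* to 1.15 for *Pcsk7*.

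Receptors for the 10 hormones were few. Of 27 receptor and receptor-partner genes with a row, 17 were below 1 FPKM in both libraries and 10 were tested. Of these 10, 5 passed the threshold upward and none downward, beside 7.09% and 4.59% of all genes, and 7 were below 1 FPKM in GFP-, so that their sign was given by the filter. Of the 5 that passed, 3 were somatostatin receptors. *Sstr5* was at 47.9 FPKM in GFP+, against 1.13 in GFP-, *Sstr1* at 22.4 against 0.345 FPKM and *Sstr2* at 6.63 against 0.785 FPKM. *Sst* itself, their ligand, was at 0.236 FPKM in GFP+. *Npy1r*, a receptor for peptide YY and neuropeptide Y, was at 6.79 against 0.0803 FPKM.

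For the other ligands, the receptor with the highest level is given. *Ramp3*, a partner that lets the calcitonin receptor bind amylin and also serves other receptors, was at 33.1 FPKM in GFP+, against 1.11 in GFP-, while the calcitonin receptor gene *Calcr* was at 0.0147 FPKM in GFP+ and listed at 0 in GFP-. *Gipr*, the GIP receptor, was at 3.07 against 0.289 FPKM. *Gcgr*, the glucagon receptor, was at 1.55 against 0.303 FPKM, and *Crhr2*, the urocortin receptor, at 1.40 against 0.00705 FPKM. The secretin receptor *Sctr* reached 0.0190 FPKM in GFP+, and the cholecystokinin receptor *Cckar* 0.00590 FPKM in GFP-. The tachykinin receptors *Tacr1*, *Tacr2* and *Tacr3* and the ghrelin receptor *Ghsr* were listed at 0 in both libraries.

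**Figure D5:**
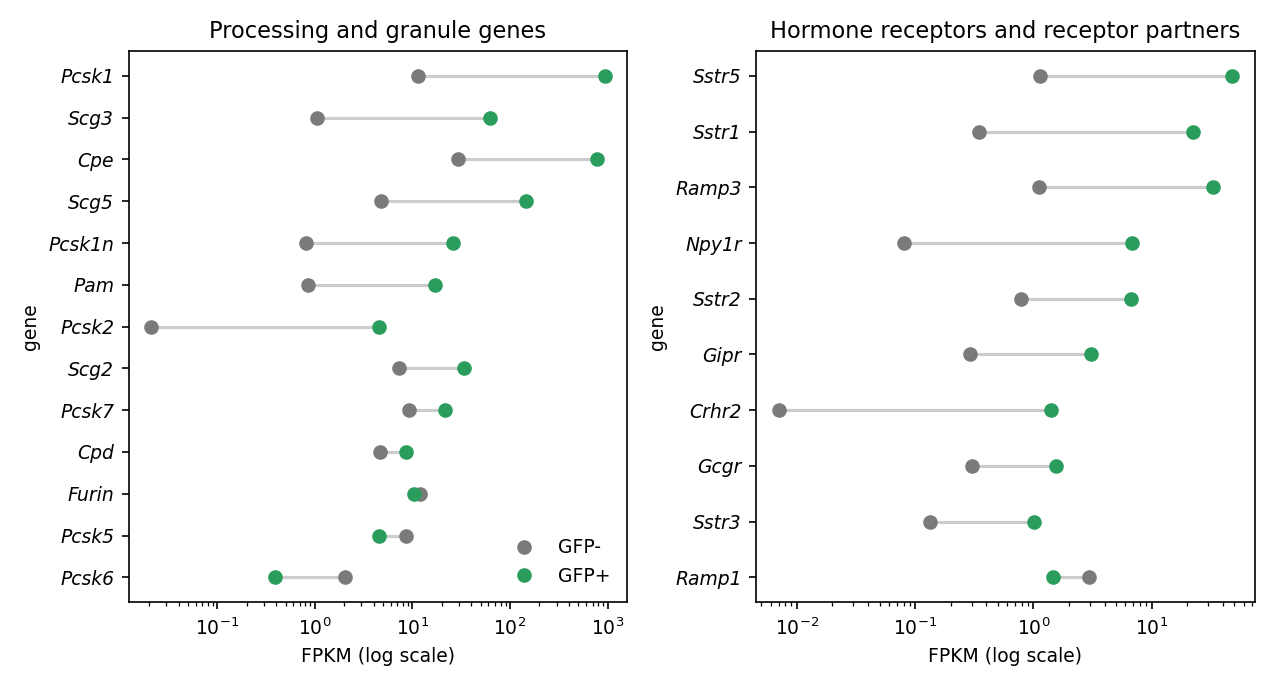
FPKM (log axis) in GFP+ (green) and GFP- (grey) of the prohormone processing and granule genes (left) and of the receptors and receptor partners of the 10 hormones (right) with at least 1 FPKM in either library. *Pcsk1* and *Cpe* lead on the left at 930 and 782 FPKM in GFP+, and *Sstr5* on the right at 47.9 FPKM.

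Transcription factors of the enteroendocrine lineage passed the threshold upward in 12 of 24 tested and downward in none, beside 7.09% and 4.59% of all genes, with a median difference of 2.05. In GFP-, 9 of the 24 did not reach 1 FPKM, and these could only come out higher. *Lmx1a*, *Rfx6*, *Nkx2-2* and *Neurod1* had the largest differences, from 5.04 to 6.42. The next 5 factors are known regulators of endocrine cell formation, did not pass the threshold as deposited, and are named here after their values were seen. *Hhex*, a D cell factor, was at 0.282 FPKM in GFP+, against 1.00 in GFP-, and *Isl1* at 0.765 against 1.32 FPKM. Both were tested on account of their GFP- values, close to the filter, and could only come out lower. *Neurog3*, the factor of the endocrine progenitor, had the lowest difference of the list, -1.43, at 5.53 against 16.6 FPKM. *Pax4* was at 10.8 against 2.59 FPKM, a difference of 1.72, which passed the threshold under both other scalings, at 2.19 and 2.43. *Rfx3* was at 5.07 against 0.589 FPKM, a difference of 1.93, and likewise passed it under both, at 2.36 and 2.79.

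Levels of cell type markers are set beside the hormones. Counts are to be read against 7.09% higher and 4.59% lower among all genes, the latter 1.51% and 1.2% under the other scalings. All 6 enterochromaffin markers that could be compared passed the threshold upward, with a summed level of 3390 FPKM against 105 FPKM, and so did all 6 pan-enteroendocrine markers, at 2155 against 51.7 FPKM. These counts are not separate from those above. All 6 pan-enteroendocrine markers are among the processing genes or transcription factors already counted, as are the enterochromaffin markers *Lmx1a* and *Fev*. All 9 Paneth cell markers were at least 4-fold lower, at 1133 against 18406 FPKM, so that GFP+ held 6.15% of the GFP- level. *Gcg*, *Sst* and *Ghrl* held 0.238%, 0.627% and 2.32% of their GFP- levels. Goblet cell markers summed to 1358 against 3186 FPKM with 2 of 7 lower, enterocyte markers to 1862 against 3572 FPKM with 2 of 9 lower and 1 higher, stem cell markers to 346 against 1373 FPKM with 2 of 5 lower, and tuft cell markers to 5.42 against 18.0 FPKM with 1 of 5 lower. The markers lower in these lists were *Agr2* and *Spink4*, *Fabp1* and *Fabp2*, *Olfm4* and *Ascl2*, and *Rgs13*, and the others did not pass the threshold, apart from *Krt20*, which was higher. Under both other scalings *Fabp1*, *Fabp2*, *Olfm4* and the Paneth cell gene *Mmp7* no longer passed it, nor did *Rgs13* with the median ratio set to 0. Of the 5 tuft cell markers tested, 3, *Rgs13* among them, were below 1 FPKM in GFP+, so that the filter gave their sign. Of 12 markers of cells outside the epithelium, 6 reached 1 FPKM, all through GFP+, and 2 were higher, *Lyz2* and *Pecam1*, with a sum of 24.8 against 2.01 FPKM over the 12. With both libraries rescaled to one total, 4 of the 6 were higher, *Col1a1* and *Col3a1* joining at 2.25 and 2.29. The T cell gene *Cd3e* was listed at 0 in GFP+. The pancreatic islet genes *Ins1*, *Ins2* and *Ppy* summed to 0.0209 FPKM in GFP+ and were listed at 0 in GFP-. The part of these other cells in the hormone values was not tested.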

How the data were processed

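Polyadenylated RNA of the GFP+ and GFP- fractions was turned into low-input cDNA libraries, per the labels' protocols, with 1 library per fraction. The deposited values are FPKM with a lower and an upper bound and a status, per the file headers. The submitters' processing notes name mm10, FastQC, TopHat2 0.7, Cufflinks and Cuffdiff. The gene annotation, the library scaling, the strand setting and the handling of multiply mapped reads were not given in the sources used here. No counts were used, and depth was estimated only from steps in the low values. The unit and the bases subtracted were those that put the largest number of genes near 1 fragment, within a range set beforehand. Of 465 single-transcript genes of 600 to 6000 bases below 4.5 fragments in GFP-, 80.6% lay within 0.1 of a whole number, and 79.3% of 498 in GFP+. These shares check nothing independently, since the same values set the unit.

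FPKM was summed per symbol with Python 3.11.15 and pandas 2.3.3. Symbols of the 5 rows that Cuffdiff left without an estimate in GFP+ were dropped, which left 23532. The 11868 symbols of at least 1 FPKM in either library were compared with a pseudocount of 1. The code was also run on simulated shifts without noise, in genes of at least 10 FPKM, with the median rescaling and no pseudocount. That run checked the arithmetic only and cannot speak for the settings or low values reported here. With 1 library per group no test was possible, and an absolute log2 difference of 2 or more set genes apart. The median ratio was taken over 5563 genes that reached 10 FPKM in each library. Alternatives were pseudocounts of 0.1 and 5, 2 rescalings, a filter of 10 FPKM and no filter. The text names all 10 hormone genes, the nearest gene to each, the 4 genes of each list that differed most, and the highest receptor of each ligand. Where symbols were not matched (*Ppyr1* among the receptors, *Clca3a1* and *Sh2d6* among the markers), no value is given. The hormone genes and lists were chosen with earlier results of these data known. Promoter windows are from RefSeq, build GRCm38.p6, and gene spans and transcript lengths from GENCODE M21. Some genes of these lists are not reported here by name.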

Additional observations from a re-analysis of the deposited data

How the results depend on the processing

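The same 4 hormone genes were at least 4-fold higher and the same 3 at least 4-fold lower under all 6 alternatives: a pseudocount of 0.1 or 5, the median ratio set to 0, one total, a filter of 10 FPKM and no filter. The filter settings could not have changed these calls. A filter leaves the differences as they are, and each of these genes was above 10 FPKM in its higher library. None of the 40 single-gene differences under the first 4 alternatives changed sign or crossed the threshold. The median difference over the hormone genes, -0.74 as deposited, was -0.89 with a pseudocount of 0.1, -0.57 with a pseudocount of 5, -0.35 with the median ratio set to 0, -0.26 with one total and -0.96 over the 9 members of at least 10 FPKM. Over all genes the counts moved more: 841 higher and 545 lower as deposited became 1524 and 809 with a pseudocount of 0.1, 353 and 315 with 5, 1317 and 184 with the median ratio set to 0, and 1717 and 153 with one total. Adding 22 other peptide genes to the denominator of the shares, chosen after seeing the data, lowered every hormone share in GFP-, since these genes held 37.9% of the enlarged sum there (*Guca2a* and *Guca2b* lead them, at 270 and 128 FPKM) and 4.45% in GFP+. *Gip* went from 40.7% to 25.3% in GFP- and *Tac1* from 72.4% to 69.2% in GFP+. No paired analysis was possible because each fraction has 1 library. With 1 library each, no replicate could be left out. Fragment numbers cover counting error only.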
